A study of Homo sapiens with 8 samples.

Results

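Transcripts of the nuclear-encoded subunits of respiratory chain complexes I to IV were followed in 2 ovarian cancer cell lines at 37 °C and at 46 °C. Members were all probes whose annotated symbol starts with NDUFA, NDUFB, NDUFC, NDUFS, NDUFV, UQCR, COX4I, COX5, COX6, COX7 or COX8, or is SDHA, SDHB, SDHC, SDHD or CYC1, without the NDUFAF assembly factors and without pseudogenes. The rule found 65 genes (79 probes) among 20046 named genes on the array: 36 of complex I, 3 of complex II, 9 of complex III and 17 of complex IV. Of these, 59 passed the filter on low values and were tested, namely all those of complexes I to III and 11 of complex IV. NDUFA4, NDUFA4L2 and SDHB were not analysed here.

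Total RNA of cells labelled A2780 or SKOV3, established lines grown from human ovarian cancers, was measured on Illumina BeadChips. Each line was measured as a control group at 37 °C and as a hyperthermia group at 46 °C, with 2 samples in each of the 4 groups and 8 arrays in all. The labels give no exposure time and do not say whether a group's samples were separate cultures, so p-values measure only the spread between these samples, which may be technical. Neither line carries a stated genetic change or second agent.

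The respiratory chain passes electrons from NADH (complex I) and succinate (complex II) through ubiquinone to complex III, then through cytochrome c to complex IV, which reduces oxygen. Complexes I, III and IV pump protons across the inner mitochondrial membrane, and ATP synthase uses the gradient they build. Most subunits are encoded in the nucleus and imported, while a small catalytic set of complexes I, III and IV comes from mitochondrial DNA. Complex II is wholly nuclear and also works as succinate dehydrogenase in the citric acid cycle. All 13 genes of the mitochondrial DNA list were without a probe under these symbols, so only the nuclear side is described.

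Values are normalized log2 intensities, and changes are differences of group means on that scale, followed after ± by the SE of the limma fit (n = 2 samples per group). A member was called higher or lower where its p, adjusted by the Benjamini-Hochberg method over all 14190 genes tested, was under 0.05. The array of A2780 control 2 was brighter than the rest: its upper signal quartile was 317.1 (others 181 to 243.1) and 41.9% of its probes exceeded background (others 36.9% to 39.1%). The members differed between the A2780 control samples by a median of 0.207, against 0.0762 in SKOV3 control, 0.0876 in A2780 hyperthermia and 0.15 in SKOV3 hyperthermia. The heat labels were borne out by the HSP40 gene DNAJB1, which rose by 2.89 ± 0.133 in A2780 and by 3.24 ± 0.133 in SKOV3 (adjusted p = 6.7e-09 and 1.78e-09 in limma). The label of ovarian cancer cells was checked against epithelial and Müllerian markers. KRT7, KRT8, CDH1, PAX8, WT1 and MUC16 were above background on no array, EPCAM was on 7 arrays, KRT18 on the 4 SKOV3 arrays and KRT19 on 2. Of the mesenchymal genes VIM was above background on all 8 arrays and FN1 on none. ERBB2, a receptor gene known to be amplified in SKOV3 and looked up after the other values were seen, read 9.291 and 9.528 in A2780 control and 9.486 and 9.535 in SKOV3 control, overlapping values. Its difference was 0.10 ± 0.132 at 37 °C (adjusted p = 0.635) and 0.24 ± 0.132 at 46 °C (adjusted p = 0.217), so ERBB2 did not bear out the line labels, and no other check of them was made. A2780 and SKOV3 stand here for the cells so labelled, in every comparison between them. Leukocyte, endothelial and erythroid markers (PTPRC, CD3E, CDH5, VWF, HBB, HBG1) were above background on no array, LYZ was on 2 and PECAM1 on 1.

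Most subunits were strongly represented in both lines. Before any filter, 66 of the 79 member probes were above background on all 8 arrays and 9 on none. On single arrays 36.9% to 41.9% of all probes exceeded background. Of the 59 tested members, which had passed the filter on low values, 57 were above background on all 8 arrays. The exceptions were NDUFC2, an accessory subunit of the complex I membrane arm, and NDUFS6, which carries a zinc ion in the peripheral arm; each was above background on 1 array. Complex IV has subunits with alternative isoforms, and here the array separated the forms sharply. The widely expressed COX4I1 lay at 13.15 to 13.52, COX6A1 at 12.2 to 12.77, COX6B1 at 12.48 to 13.01, COX7A2 at 13.09 to 13.65, COX7B at 12.09 to 12.99 and COX8A at 13.24 to 13.7 over the 8 arrays, all above background. Their counterparts were not above background on any array: the hypoxia- and lung-associated COX4I2 (5.736 to 6.053), the heart and muscle forms COX6A2 (6.043 to 6.166) and COX7A1 (5.807 to 6.264), the testis forms COX6B2 (5.812 to 6.319 at its first probe) and COX7B2 (5.898 to 6.056), and COX8C (5.906 to 6.129). These 6 genes are the members that fell below the filter, and no isoform came above background at 46 °C.

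The first comparison asked how 46 °C changed the subunits in A2780. Few members moved. UQCRB, the ubiquinone-binding accessory subunit of complex III, rose, and SDHA, the flavoprotein that oxidises succinate in complex II, fell. These 2 calls among 59 members (3.39%) stand beside 4.58% of all tested genes called, 2.25% higher and 2.33% lower. No member was called with A2780 control 2, A2780 hyperthermia 1 or A2780 hyperthermia 2 left out, and 8 were called without A2780 control 1. The members' median change was -0.02 against -0.01 over all genes, and 34 of 59 had a change below 0. Groups did not overlap for 18 members with higher values at 46 °C (30.5%, against 21.4% of all genes) and for 19 with lower values (32.2%, against 25.6%). An unadjusted p under 0.05 was reached by 11 members, a share near the 18.1% of all genes.

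UQCRB read 10.81 and 10.31 in A2780 control and 11.41 and 11.33 in A2780 hyperthermia. Both heated samples lay above both controls, by 0.81 ± 0.205 on average (1.76-fold, adjusted p = 0.0382 in limma). The call was lost in 11 of 20 alternatives, among them leaving out A2780 control 2 (0.57, adjusted p = 0.318), A2780 hyperthermia 1 (adjusted p = 0.251) or 2 (0.167) and SKOV3 control 1 (0.0566) or 2 (0.0563). It was also lost with the authors' deposited log2 values (0.0728), a floor (0.0718), the replicate block (0.0594) and median scaling (change of 0.45, adjusted p = 0.109). Its highest adjusted p over the alternatives was 0.318 and its lowest 0.00267. A second UQCRB probe, also above background on all arrays, gave 0.33 (adjusted p = 0.221 in the limma fit of every probe), and one more, above background on none, gave 0.20 (adjusted p = 0.491).

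SDHA read 10.48 and 10.8 in A2780 control and 9.874 and 10.08 in A2780 hyperthermia. The groups did not overlap, and SDHA fell by 0.66 ± 0.143 (1.58-fold, adjusted p = 0.0163 in limma). Its other probe gave -0.42 (adjusted p = 0.242). The call was lost without A2780 control 2 (change -0.52, adjusted p = 0.143), without A2780 hyperthermia 1 (adjusted p = 0.203) and without A2780 hyperthermia 2 (0.056), and was kept in the remaining 17 alternatives.

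The other complex II genes had no call at 46 °C in A2780. SDHC, a membrane anchor that binds haem and ubiquinone, read 10.62 and 11.25 in control and 10.27 and 10.49 in hyperthermia at the probe tested (-0.56 ± 0.177, adjusted p = 0.104). Its second probe, annotated to another RefSeq transcript, had the opposite sign, with 8.751 and 8.366 in control and 9.098 and 9.191 in hyperthermia (0.59, adjusted p = 0.103 in the fit of every probe), so the probes of SDHC disagreed in sign with neither called. SDHD, the other anchor, gave 0.12 (adjusted p = 0.748). The median over the 3 complex II genes was -0.56, but it moved to -0.25 when A2780 control 2 was left out, and a median of 3 genes is set by 1 of them.

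In complex I none of the 36 members was called in A2780; their changes ran from -0.57 to 0.34 with a median of -0.03. Of the core subunits, most of which carry flavin or iron-sulphur clusters, 5 of 6 had a change below 0 in A2780 and 6 of 6 in SKOV3 (52% and 55.2% of all genes did), with medians of -0.05 and -0.10 and no calls. The largest of these was NDUFV2, an iron-sulphur subunit of the NADH-binding module, which read 12.55 and 12.76 in A2780 control and 12.15 and 12.38 in hyperthermia (-0.39 ± 0.141, adjusted p = 0.153). NDUFV1, which holds the flavin, gave -0.26 (adjusted p = 0.42), while NDUFS1, NDUFS3, NDUFS7 and NDUFS8, which carry or flank the iron-sulphur relay, gave -0.03, 0.0026, -0.08 and -0.02. Complex III apart from UQCRB ranged from -0.44 (UQCRC1, a core subunit) to 0.13, and complex IV from -0.20 to 0.50 (COX7B, adjusted p = 0.118).

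**Figure D1:**
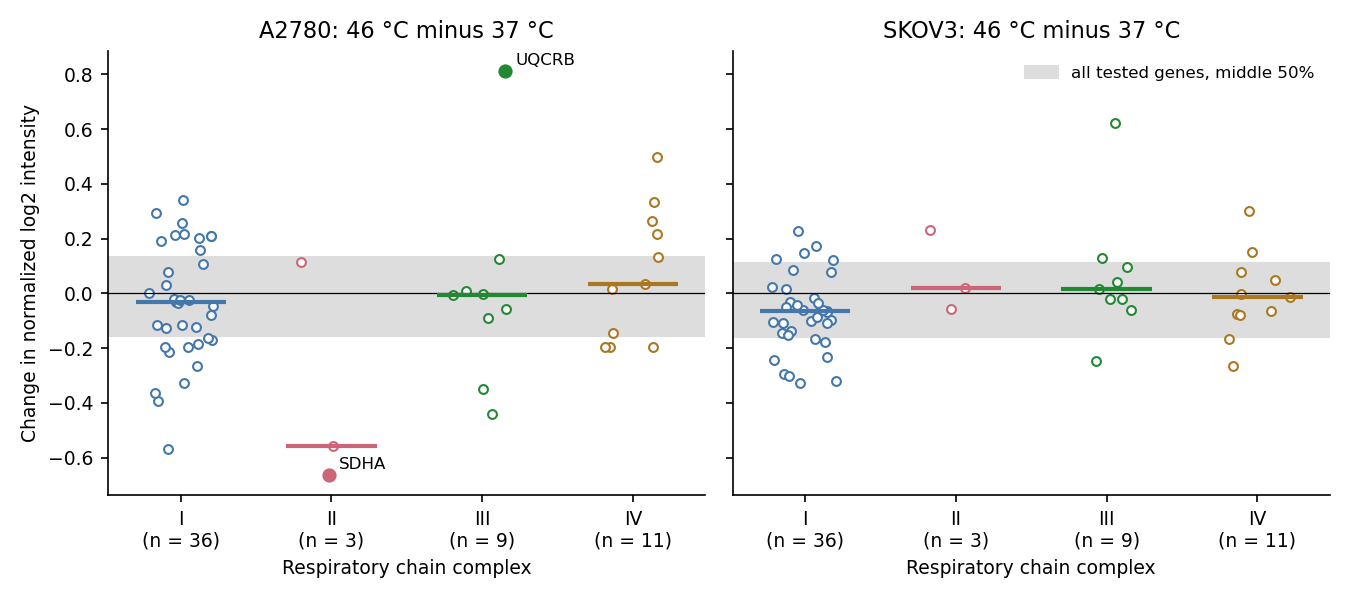
Change of each tested member at 46 °C (vertical axis, difference of normalized log2 intensity between 2 hyperthermia and 2 control samples) by complex, in A2780 (left) and SKOV3 (right). Filled points were called, horizontal bars are complex medians and the grey band holds the middle 50% of all tested genes; UQCRB and SDHA stand out in A2780, and no point is filled in SKOV3.

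In SKOV3 the same comparison gave no call among the 59 members in limma, beside 3.23% of all genes called (1.55% higher and 1.68% lower). An unadjusted p under 0.05 was reached by 3 members, against 15% of all genes. The median change was -0.06 against -0.02 over all genes, and 39 of 59 members had a change below 0. Groups did not overlap for 8 members with higher values (13.6%, against 18.6% of all genes) and 13 with lower values (22%, against 26.9%). UQCRB read 10.91 and 10.54 in SKOV3 control and 11.06 and 11.64 in SKOV3 hyperthermia. Both heated samples were again the higher ones, with a change of 0.62 ± 0.205 (adjusted p = 0.146), while the second UQCRB probe gave -0.08. The remaining changes lay between -0.33 and 0.30. SDHA gave 0.0178, with 10.17 and 10.24 in control and 10.29 and 10.16 in hyperthermia, overlapping values. The accessory complex I subunits NDUFA8 and NDUFA2 were the other members with an unadjusted p under 0.05, at -0.32 and -0.30 (adjusted p = 0.291 and 0.318).

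The precision of these null results can be read from the intervals. In each line the 95% interval of the change lay within 1 log2 unit in either direction for 58 of 59 members. It lay within 0.5 for 37 members in A2780 and 47 in SKOV3. With quantile normalization and at the probes tested, a change of 2-fold was thus outside the interval for all members but UQCRB. The intervals do not cover the choice of scaling. In A2780 the complex II median was -0.96 with median scaling and -1.07 with no between-array normalization, the latter beyond 2-fold.

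The response averaged over the lines was tested in an additive model with line and temperature. It called 2 members (3.39%), beside 7.04% of all genes (3% higher and 4.05% lower), and 9 members had an unadjusted p under 0.05, against 20.3% of all genes. UQCRB rose by 0.72 ± 0.145 (adjusted p = 0.00786 in limma), with the heated samples above the control samples of the same line in both lines. The call was kept in 17 of 19 alternatives and lost with median scaling (0.55, adjusted p = 0.0562) and with no between-array normalization (0.50, adjusted p = 0.116). The second UQCRB probe, above background on all arrays, gave 0.13 (adjusted p = 0.601 in the limma fit of every probe). The remaining UQCRB probe, above background on none, gave 0.18 (adjusted p = 0.318). NDUFV3, a small accessory subunit of the NADH-binding module, fell by 0.45 ± 0.121 (adjusted p = 0.0396). It read 8.17 and 8.543 in A2780 control against 7.744 and 7.832 in A2780 hyperthermia, and 8.094 and 8.002 in SKOV3 control against 7.949 and 7.49 in SKOV3 hyperthermia. The heated samples were lower in each line without overlap. The NDUFV3 call was lost in 11 of 19 alternatives, including every array left out in turn except SKOV3 hyperthermia 1 (adjusted p from 0.0553 to 0.122), the authors' deposited log2 values (-0.37, adjusted p = 0.0577) and the replicate block (0.0597). Its other probe, annotated to another RefSeq transcript, gave -0.07 (adjusted p = 0.785).

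Members without overlap in both lines numbered 5 with higher values (8.47%, against 7.29% of all genes) and 6 with lower values (10.2%, against 10.9%). COX7B, a small transmembrane subunit of complex IV, was the member closest to a call: 12.67 and 12.26 in A2780 control against 12.94 and 12.99 in hyperthermia, and 12.42 and 12.09 in SKOV3 control against 12.42 and 12.69 in hyperthermia (0.40 ± 0.118, adjusted p = 0.06). CYC1, the cytochrome c1 of complex III, gave -0.30 ± 0.101 (adjusted p = 0.102). By sign alone, 38 of 59 members (64.4%) moved the same way in both lines, 26 lower and 12 higher, beside 59.3% of all genes.

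**Figure D2:**
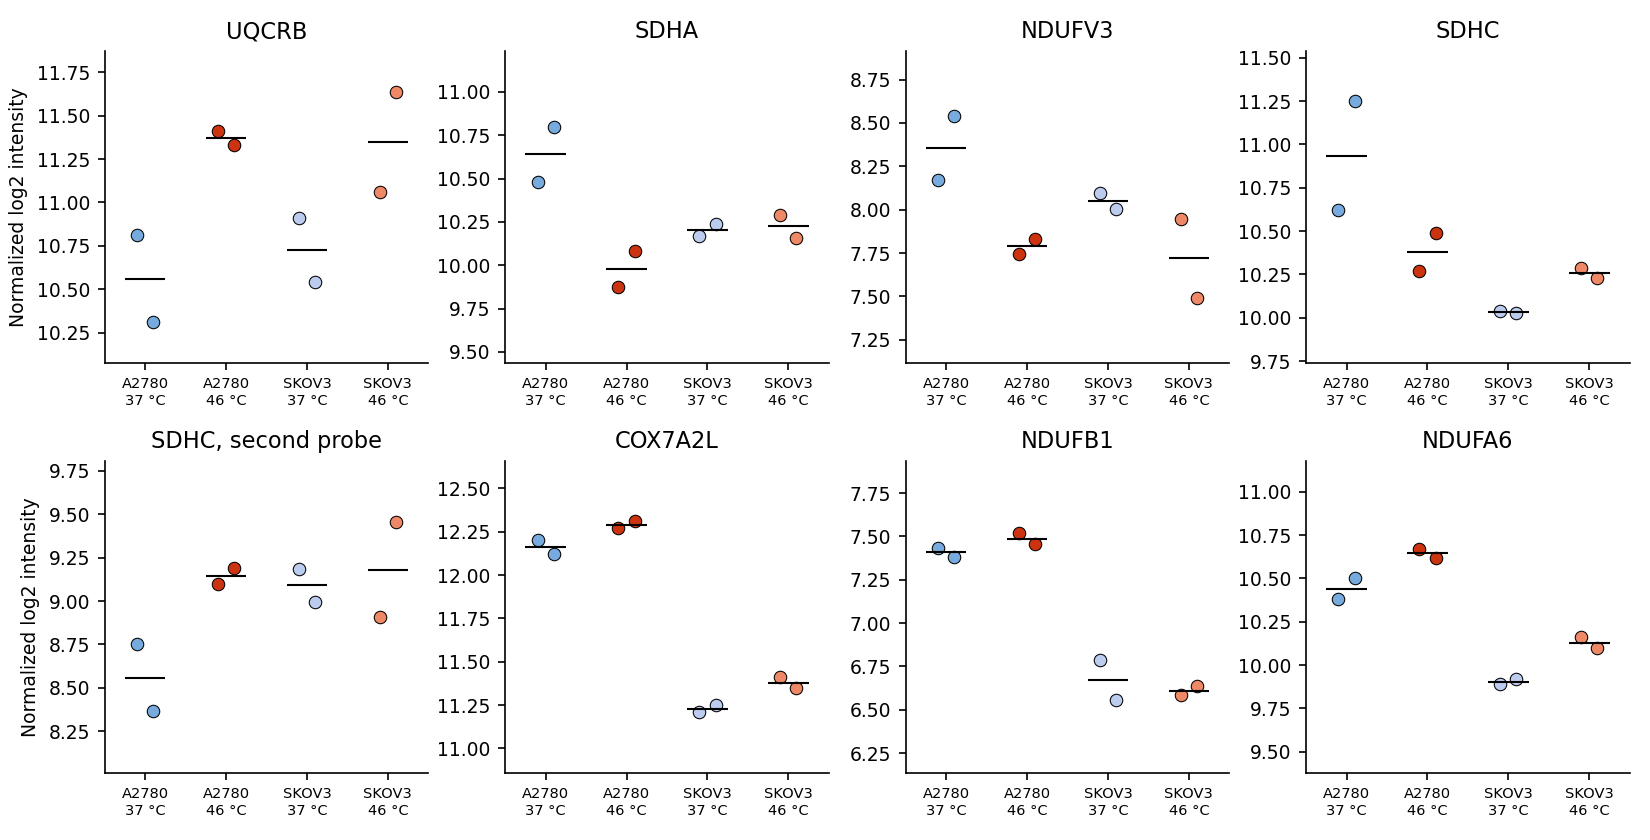
Normalized log2 intensity (vertical axis, each panel spanning 1.8 log2 units) of 8 probes in every sample, with points for the 2 samples of each group and bars for their mean. UQCRB is higher and NDUFV3 lower at 46 °C in both lines, SDHA is lower at 46 °C in A2780, the SDHC probes run in opposite directions in A2780, and COX7A2L, NDUFB1 and NDUFA6 are lower in SKOV3 at both temperatures.

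The next comparison tested whether the lines responded differently, as the SKOV3 change minus the A2780 change. No member was called in limma, beside 0.12% of all genes (0.0282% higher and 0.0916% lower), and 5 members had an unadjusted p under 0.05, against 8.56% of all genes. The leading values were those of complex II: SDHC at 0.79 ± 0.25 (adjusted p = 0.421) and SDHA at 0.68 ± 0.202 (adjusted p = 0.404). At 46 °C SDHC gave -0.56 in A2780 and 0.23 in SKOV3, and SDHA -0.66 and 0.0178. The second SDHC probe had the opposite sign (-0.50, adjusted p = 0.631), and the second SDHA probe the same sign (0.55, adjusted p = 0.604). NDUFB4 and NDUFA5, accessory subunits of complex I, gave -0.54 and -0.49, and COX6B1, which faces the intermembrane space in complex IV, gave -0.48. These differences had SEs of 0.188 to 0.25, so the SDHA call in A2780 alone does not show that SKOV3 differed.

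The largest contrast in the subunits lay between the lines. At 37 °C, 11 of 59 members were called (18.6%), fewer in share than the 29.3% of all genes: 4 higher in SKOV3 (15.5% of all genes were) and 7 lower (13.7%). The members' median was -0.13 against 0.01 over all genes, and 43 of 59 (72.9%) had a value below 0, against 48.6% of all genes. Groups did not overlap for 26 members lower in SKOV3 (44.1%, against 30.2% of all genes) and for 7 higher (11.9%, against 32.9%). In bulk RNA, fewer cells of a type and less RNA per cell cannot be told apart. At 46 °C, 8 members were called (13.6%, against 24% of all genes), 1 higher (12.3%) and 7 lower (11.7%), with a median of -0.12 against 0.0047 over all genes and 42 of 59 below 0. Groups did not overlap for 27 lower members (45.8%, against 28.7%) and 7 higher ones (11.9%, against 29.7%). The samples at 37 °C and at 46 °C do not overlap, but the 4-group fit gives both comparisons the same estimate of each gene's spread. Called at both temperatures were COX7A2L, NDUFA6, NDUFB1 and NDUFB6, 36.4% of the 11 and 50% of the 8; of all genes called, 62.6% of those at 37 °C and 76.3% of those at 46 °C were called at both.

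The promoters of respiratory subunit genes are known to hold sites for NRF1, ETS-family factors, YY1 and SP1, so RefSeq promoter sequences (GRCh38.p14, 250 bases before to 50 after a gene's start) were searched on both strands for 1 short form of each. Of the 65 member genes 54 matched, with 63 windows, since some genes have several starts. The NRF1 form GCGCATGCG stood in 7 windows (11.1%, against 1.92% of all 35116 windows and 2.36% of those of protein-coding genes) and the YY1 form AAGATGGCG in 7 (11.1%, against 1.75% and 2.41%). The ETS form CCGGAAG stood in 14 (22.2%, against 10.3% and 12.8%) and the SP1 form GGGCGG in 37 (58.7%, against 45% and 56.3%). In 1 window an ETS and an SP1 match overlapped, and no other pair of motifs did. A match is a description of the letters, not a binding site. The 4 windows printed here are those of members lower in SKOV3, chosen to show the motifs, which are in capitals: 1 SP1 form in COX7A2L (1 of 2 starts), SP1 and YY1 in NDUFA6, YY1 in NDUFA9, and in SDHD 2 NRF1 matches on opposite strands, which share letters, and an ETS match. They are chr2:42361168-42361467 (minus strand), chr22:42090723-42091022 (minus), chr12:4648864-4649163 (plus) and chr11:112086623-112086922 (plus), each written 5′ to 3′ along the gene. NDUFB1, also lower in SKOV3, had none of the 4 forms in its window, nor did SDHA.
COX7A2L promoter: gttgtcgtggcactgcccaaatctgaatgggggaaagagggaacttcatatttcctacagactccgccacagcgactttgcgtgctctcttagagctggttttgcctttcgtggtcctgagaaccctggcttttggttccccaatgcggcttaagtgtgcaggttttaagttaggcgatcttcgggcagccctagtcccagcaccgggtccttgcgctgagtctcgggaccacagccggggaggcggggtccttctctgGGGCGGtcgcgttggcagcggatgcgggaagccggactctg
NDUFA6 promoter: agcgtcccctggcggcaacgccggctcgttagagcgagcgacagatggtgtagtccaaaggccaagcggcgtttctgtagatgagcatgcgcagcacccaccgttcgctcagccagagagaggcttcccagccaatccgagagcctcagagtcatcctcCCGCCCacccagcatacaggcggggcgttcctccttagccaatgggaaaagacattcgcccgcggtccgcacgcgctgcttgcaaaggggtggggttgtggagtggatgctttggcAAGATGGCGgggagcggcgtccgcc
NDUFA9 promoter: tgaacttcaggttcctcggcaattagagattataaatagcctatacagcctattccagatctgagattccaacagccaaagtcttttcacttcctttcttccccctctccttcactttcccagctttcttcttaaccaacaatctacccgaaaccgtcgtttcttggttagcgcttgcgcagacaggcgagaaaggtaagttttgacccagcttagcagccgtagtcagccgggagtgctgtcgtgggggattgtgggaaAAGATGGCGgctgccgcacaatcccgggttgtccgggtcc
SDHD promoter: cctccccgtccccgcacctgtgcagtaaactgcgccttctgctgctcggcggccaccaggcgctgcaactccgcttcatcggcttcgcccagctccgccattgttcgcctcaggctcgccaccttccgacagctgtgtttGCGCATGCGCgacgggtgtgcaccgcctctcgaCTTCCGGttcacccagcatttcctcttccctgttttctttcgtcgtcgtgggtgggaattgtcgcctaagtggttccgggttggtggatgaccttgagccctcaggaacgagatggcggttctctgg

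COX7A2L resembles the COX7A subunits and takes part in joining complex III to complex IV in supercomplexes, rather than being a fixed subunit. It read 12.2 and 12.12 in A2780 control and 11.21 and 11.25 in SKOV3 control. At 46 °C it read 12.27 and 12.31 in A2780 and 11.41 and 11.35 in SKOV3. Every SKOV3 sample lay below every A2780 sample, by 0.93 ± 0.122 at 37 °C and 0.91 ± 0.122 at 46 °C (1.90-fold and 1.88-fold, adjusted p = 5.63e-05 and 7.75e-05 in limma). Both calls were kept in all 20 alternatives, with adjusted p up to 0.00224.

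Of the 30 accessory subunits of complex I, 7 were called at 37 °C (23.3%, against 29.3% of all genes) and 6 at 46 °C (20%, against 24%). NDUFB1, a small subunit of the membrane arm, read 7.436 and 7.379 in A2780 control against 6.788 and 6.557 in SKOV3 control, and 7.517 and 7.456 against 6.583 and 6.635 at 46 °C. It was lower in SKOV3 by 0.73 ± 0.129 and 0.88 ± 0.129 (adjusted p = 0.000689 and 0.000182), and both calls were kept in all 20 alternatives. NDUFA6, a subunit of the LYR family that binds the acyl carrier protein, read 10.38 and 10.5 against 9.888 and 9.918 at 37 °C, and 10.67 and 10.62 against 10.16 and 10.1 at 46 °C. Its differences were -0.54 ± 0.123 (adjusted p = 0.00474, kept in all 20 alternatives) and -0.51 ± 0.123 (adjusted p = 0.00759). The latter call was lost without A2780 hyperthermia 1 (adjusted p = 0.0639) and with no between-array normalization (0.0574). NDUFB6 ran the other way, at 10.85 and 10.66 in A2780 control against 11.26 and 11.24 in SKOV3 control, and 10.96 and 10.87 against 11.43 and 11.23 at 46 °C. It was higher in SKOV3 by 0.49 ± 0.133 and 0.42 ± 0.133 (adjusted p = 0.0121 and 0.0355), and its second probe gave 0.32 (adjusted p = 0.122) and 0.17 (0.446). At 37 °C the NDUFB6 call was lost without A2780 control 2 (0.0847) and without SKOV3 control 1 (0.0782) or 2 (0.0678); at 46 °C it was lost in 9 of 20 alternatives, including either A2780 hyperthermia array (0.0992 and 0.19), either SKOV3 control array (0.0593 and 0.0606) and SKOV3 hyperthermia 1 (0.191).

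Further complex I subunits were called at 37 °C. NDUFB11, of the membrane arm, read 11.67 and 12.3 in A2780 control against 11.24 and 11.28 in SKOV3 control (-0.72 ± 0.178, adjusted p = 0.00743). NDUFA9, which sits at the junction of the arms near the ubiquinone site, read 10.79 and 11.35 against 10.39 and 10.43 (-0.66 ± 0.162, adjusted p = 0.00751). A2780 control 2 held the higher value in each, and without it the differences were -0.42 and -0.38 and neither was called (adjusted p = 0.0788 and 0.0779); both calls were also lost without SKOV3 control 1 (0.0583 for each). NDUFA12, near the NADH module, was higher in SKOV3 (12.7 and 12.42 against 12.18 and 11.97; 0.49 ± 0.144, adjusted p = 0.0201), as was NDUFC1, a small membrane subunit (11.26 and 11.2 against 10.87 and 10.85; 0.37 ± 0.13, adjusted p = 0.0462). The NDUFA12 call was lost without A2780 control 2 (0.124) and without SKOV3 control 1 (0.209). That of NDUFC1 was lost without any 1 of the control arrays or the A2780 hyperthermia arrays (0.0646 to 0.208).

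Called at 46 °C but not at 37 °C were NDUFB4, NDUFA5, NDUFS4 and SDHD, all lower in SKOV3. NDUFB4, of the membrane arm, read 7.589 and 7.433 in A2780 against 6.897 and 6.944 in SKOV3 (-0.59 ± 0.133, adjusted p = 0.00481), while a second probe, above background on 2 arrays, gave -0.11. NDUFA5, of the peripheral arm, read 8.439 and 8.578 against 7.708 and 8.147 (-0.58 ± 0.156, adjusted p = 0.0145). NDUFS4, needed for a stable NADH module, read 11.96 and 11.88 against 11.51 and 11.59 (-0.37 ± 0.124, adjusted p = 0.0452). These members were not called at 37 °C (-0.05, -0.09 and -0.28), and their differences of response were not called either. The NDUFB4 call was lost without A2780 hyperthermia 1 (0.0581), that of NDUFA5 without A2780 hyperthermia 2 (0.116) or SKOV3 hyperthermia 1 (0.141, at -0.36), and that of NDUFS4 in 11 of 20 alternatives, among them either A2780 hyperthermia array (0.214 and 0.122) and the replicate block (0.0563).

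None of the 6 tested core subunits of complex I was called at either temperature. Their median was -0.17 at 37 °C and 0.01 at 46 °C, beside -0.10 and -0.17 for the 30 accessory subunits. NDUFS3, a core subunit next to the ubiquinone-binding region, came nearest at 46 °C, at 12.82 and 12.63 in A2780 against 12.45 and 12.24 in SKOV3 (-0.38 ± 0.136, adjusted p = 0.0591).

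**Figure D3:**
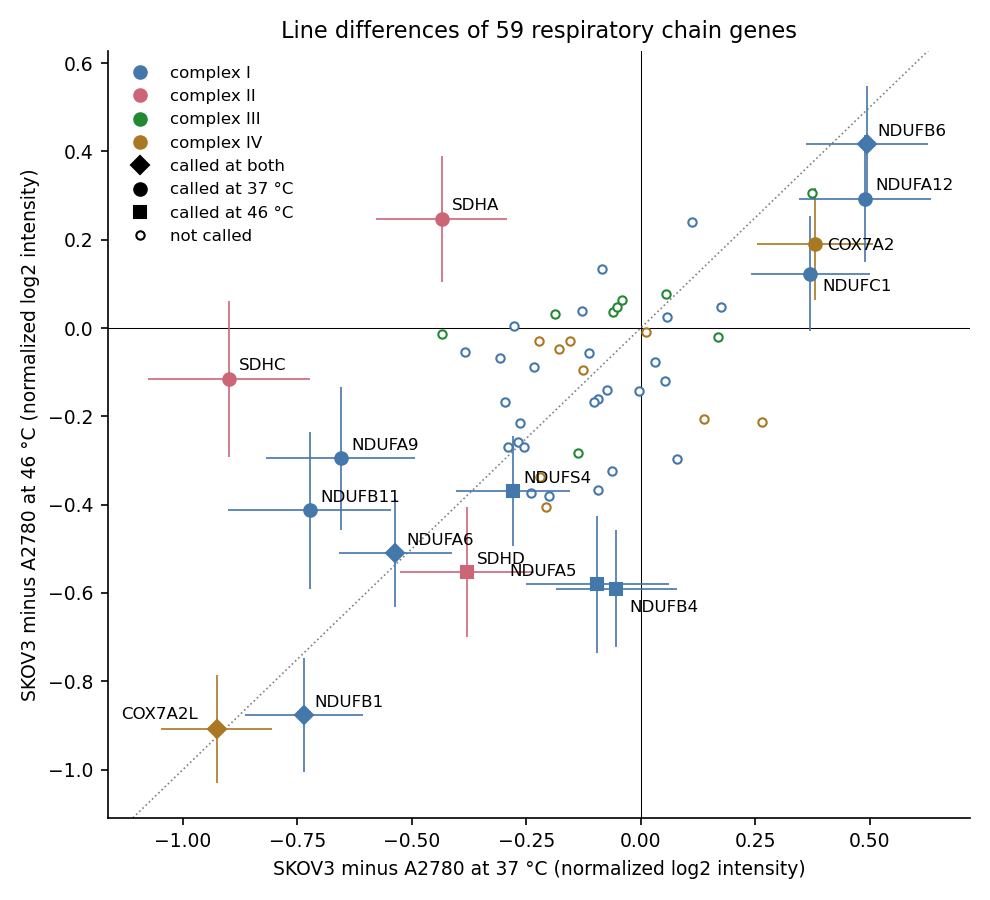
Difference between SKOV3 and A2780 at 37 °C (horizontal axis) and at 46 °C (vertical axis) in normalized log2 intensity for the 59 tested members, coloured by complex, with SEs for called members and a dotted line of equal difference. COX7A2L, NDUFB1 and NDUFA6 lie low on both axes and NDUFB6 high on both, while SDHC and SDHA are low at 37 °C only.

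In complex II, SDHA and the tested SDHC probe were called lower in SKOV3 at 37 °C, a second SDHC probe was called higher, and SDHD was not called. SDHC read 10.62 and 11.25 in A2780 control against 10.04 and 10.03 in SKOV3 control at the probe tested (-0.90 ± 0.177, 1.87-fold, adjusted p = 0.00157, kept in all 20 alternatives). Its second probe was higher in SKOV3, at 8.751 and 8.366 against 9.185 and 8.997 (0.53, adjusted p = 0.0431 in the fit of every probe), and that call was lost in 8 of 13 alternatives, such as without A2780 control 2 (adjusted p = 0.291), and turned in sign in 2. The direction for SDHC therefore depended on the probe. SDHA read 10.48 and 10.8 against 10.17 and 10.24 (-0.43 ± 0.143, adjusted p = 0.0351), with -0.22 at its other probe; the call was lost without A2780 control 2 (-0.28, adjusted p = 0.242) and without SKOV3 control 1 (0.177) or 2 (0.113). The A2780 control samples behind this difference are the same as those behind the fall of SDHA at 46 °C. SDHD read 11.33 and 11.36 against 11.08 and 10.85 at 37 °C (-0.38 ± 0.147, adjusted p = 0.0686) and 11.48 and 11.44 against 10.72 and 11.09 at 46 °C (-0.55 ± 0.147, adjusted p = 0.0133). The latter call was lost without either A2780 hyperthermia array (0.0887 and 0.0657) and without SKOV3 hyperthermia 1 (-0.36, adjusted p = 0.133).

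Set against each gene's mean over the 8 arrays, the median of complex II stood at 0.216 and 0.536 in the A2780 control samples and between -0.315 and 0.088 in the others. Complex I had positive medians on all 4 A2780 arrays (0.05 to 0.157) and negative ones on all 4 SKOV3 arrays (-0.186 to -0.036), and complex IV likewise (0.037 to 0.063 and -0.13 to -0.006). Complex III did not separate the lines, with -0.077 to 0.083 in A2780 and -0.049 to 0.056 in SKOV3. Over all genes these medians lay between -0.016 and 0.012, but quantile normalization holds them close to 0 on every array. Gene sets of like size or brightness were not compared. The medians by complex therefore do not show a difference particular to these complexes.

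**Figure D4:**
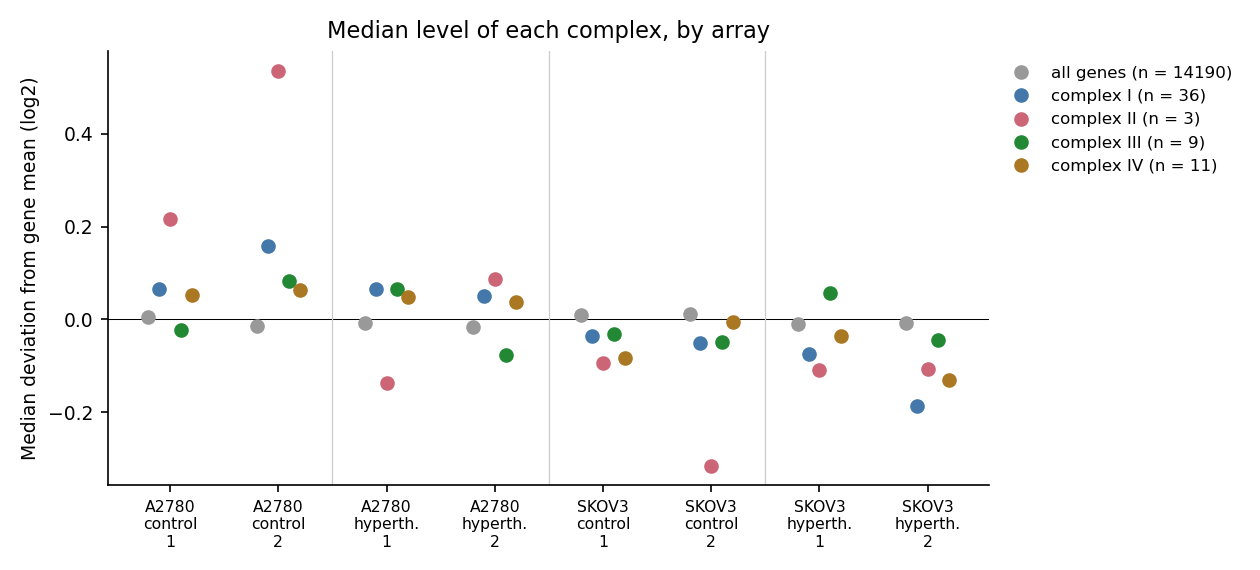
Median over each complex of the deviation from a gene's own mean (vertical axis, log2) on each of the 8 arrays. Complexes I and IV are above 0 on the A2780 arrays and below 0 on the SKOV3 arrays, and the complex II points of the A2780 control samples (0.216 and 0.536) are the highest.

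Complex III had no call between the lines at the probes tested (medians of -0.05 at 37 °C and 0.04 at 46 °C), but the probes of UQCR10, one of its small transmembrane subunits, differed. The tested probe gave -0.06 at 37 °C (adjusted p = 0.818 in the fit of every probe). A second probe, annotated like the next to another RefSeq transcript, read 9.708 and 9.518 in A2780 control against 8.834 and 8.765 in SKOV3 control (-0.81 ± 0.144, adjusted p = 0.000796 in the fit of every probe), and another 9.809 and 9.876 against 8.869 and 8.723 (-1.05 ± 0.131, adjusted p = 3.89e-05). At 46 °C these probes gave -0.85 and -0.82 (adjusted p = 0.000634 and 0.000398) beside 0.04 at the tested probe, and all of these calls were kept in 13 alternatives. In complex IV, COX7A2 was higher in SKOV3 at 37 °C, at 13.6 and 13.46 against 13.21 and 13.09 (0.38 ± 0.127, adjusted p = 0.0377), and the call was lost in 9 of 20 alternatives, with its sign turned in 1 of them, such as without SKOV3 control 1 (0.31, adjusted p = 0.244), SKOV3 control 2 (0.0918) or A2780 control 2 (0.137).

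The split of higher and lower members depended on the scaling of the arrays, and that of all genes moved with it. When arrays were scaled to 1 median instead, the median change of all genes was -0.28 in A2780 at 46 °C and -0.229 between the lines at 37 °C. Under that scaling 0 members were higher and 13 lower (22%) in A2780 at 46 °C, where 1.33% of all genes were higher and 31% lower. Between the lines at 37 °C 0 members were higher and 37 lower (62.7%) in SKOV3, where 5.6% of all genes were higher and 33.9% lower. With no between-array normalization these splits were 0 and 15 members (25.4% lower, against 36.5% of all genes), and 0 and 41 (69.5% lower, against 38.6%). Between the lines at 46 °C they were 0 and 7 with median scaling (11.9% lower, against 9.18% of all genes) and 0 and 3 with none (5.08%, against 7.25%). The values of NDUFB6, NDUFC1, NDUFA12 and COX7A2 at 37 °C turned below 0 under at least 1 of these scalings, which shift all genes alike. Relative to the median gene they stayed higher in SKOV3, by 0.21, 0.096, 0.233 and 0.301 with no between-array normalization. The lower values of COX7A2L, NDUFB1, NDUFA6 and the tested SDHC probe kept their calls at 37 °C. Relative to the median gene, the members' median between the lines at 37 °C was -0.136 with quantile normalization and -0.289 with either alternative. The members were brighter than most genes, with a median level of 11.87 against 7.604 over all tested genes. Neither alternative evens out array differences that vary with brightness. The -0.289 and the shares of lower members therefore do not show a difference particular to the members, and genes of like brightness were not compared. The brightness of A2780 control 2 moves with these splits; with median scaling and that array left out, an alternative chosen after seeing the data, 0 members were higher and 24 lower at 37 °C (40.7%, against 23.7% of all genes). Its part in the result was not tested further.

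**Figure D5:**
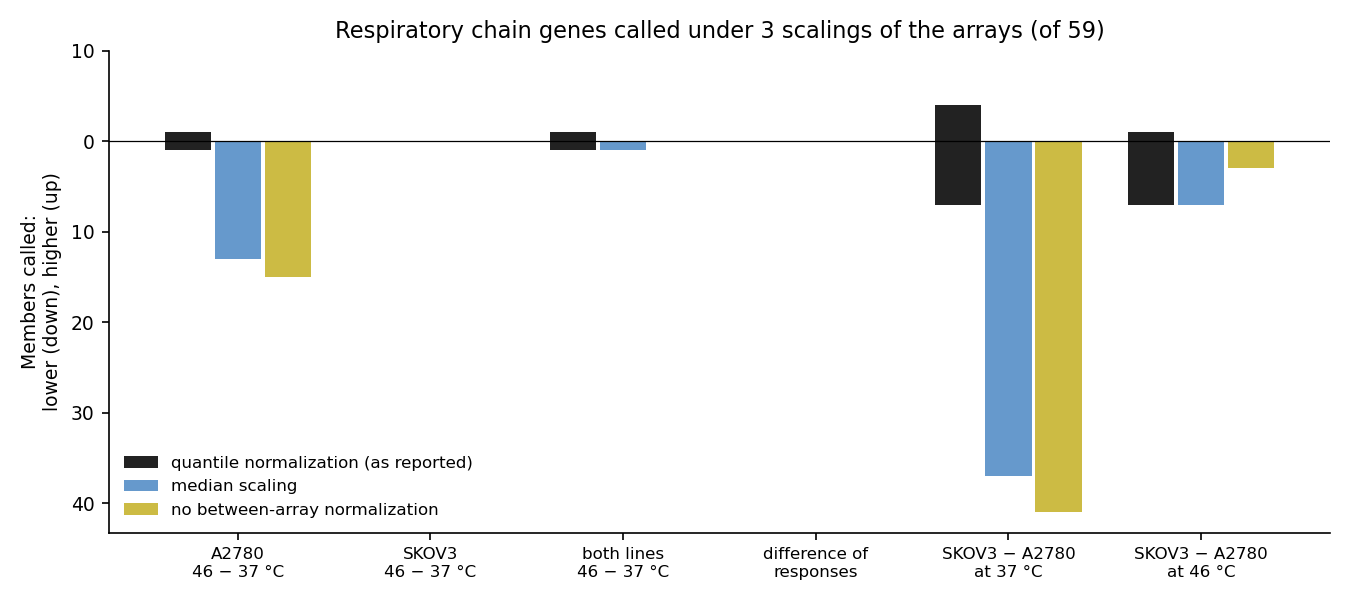
Number of the 59 tested members called higher (bars up) or lower (bars down) in the 6 comparisons under 3 scalings of the arrays. With median scaling or none, 37 or 41 members (62.7% or 69.5%) were lower in SKOV3 at 37 °C against 7 (11.9%) with quantile normalization; the shares of all genes lower were 33.9%, 38.6% and 13.7%.

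Other genes of the pathway came from lists of known roles. Of 45 tested assembly factors of complexes I to IV, 1 was higher and 2 lower in A2780 at 46 °C, and 1 higher and 0 lower in SKOV3 (6.67% and 2.22% called, against 4.58% and 3.23% of all genes). For the common response 1 was higher and 4 lower (11.1%, against 7.04%). SDHAF1, which helps insert iron-sulphur clusters into SDHB, fell by 0.84 ± 0.149 in A2780 (adjusted p = 0.00452, lost without A2780 hyperthermia 2 at 0.0837), and by 0.66 ± 0.114 over both lines (adjusted p = 0.00265, kept in 19 of 19 alternatives). SCO2, a copper chaperone of complex IV, fell over both lines by 0.62 ± 0.117 (adjusted p = 0.00472), and LYRM7, which delivers the Rieske protein to complex III, by 0.52 ± 0.0968 (adjusted p = 0.00449), each kept in 19 of 19. In SKOV3, NUBPL, an iron-sulphur factor of complex I, rose by 0.76 ± 0.137 (adjusted p = 0.00631), a call lost without SKOV3 control 1 (0.111) or 2 (0.0517). Between the lines 6 factors were higher and 7 lower in SKOV3 at 37 °C, and 2 higher and 13 lower at 46 °C. These were 13.3% and 15.6% at 37 °C (15.5% and 13.7% of all genes), and 4.44% and 28.9% at 46 °C (12.3% and 11.7% of all genes). The lower factors were led by COA6, a complex IV factor (-1.04 and -0.98), and NDUFAF8, a complex I factor (-0.75 and -1.01).

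None of 19 ATP synthase subunits was called at 46 °C in either line. Between the lines 1 was higher and 4 lower in SKOV3 at 37 °C, and 0 higher and 4 lower at 46 °C, 26.3% and 21.1% called against 29.3% and 24% of all genes. All of the genes for the c subunit of the proton-driven ring were among the lower ones at 37 °C: ATP5MC2 (-1.20 ± 0.19, adjusted p = 0.000288), ATP5MC1 (-0.80 ± 0.15) and, named after its value was seen, ATP5MC3 (-0.71 ± 0.127, adjusted p = 0.000737). ATP5MJ, a small membrane subunit, gave -0.72 and -0.89 (adjusted p = 0.00159 and 0.000355). Of 4 electron carrier genes 1 was called, lower in SKOV3 at 37 °C (25%, against 29.3% of all genes called). It was ETFDH, which passes electrons from fatty acid oxidation to ubiquinone, at -0.41 (adjusted p = 0.0405 in limma). The ETFDH call was lost in 7 of 20 alternatives, such as without SKOV3 control 1 (change of -0.32). Of 11 tested regulators of respiratory genes, 1 was higher and 1 lower in A2780 at 46 °C, and 0 higher and 1 lower in SKOV3. These were 18.2% and 9.09% called, against 4.58% and 3.23% of all genes. Between the lines 27.3% were called at 37 °C and 18.2% at 46 °C, against 29.3% and 24% of all genes. PPRC1, a coactivator related to PGC-1, fell by 1.06 ± 0.124 in A2780 (adjusted p = 0.000122 in limma, kept in 20 of 20). In SKOV3 it fell by 0.60 ± 0.124 (adjusted p = 0.0146), a call lost in 5 of 20 alternatives. These were median scaling (adjusted p = 0.0654), no between-array normalization (0.218) and leaving out SKOV3 control 1, control 2 or hyperthermia 2 (changes of -0.637, -0.567 and -0.535). GABPB1, a subunit of the ETS-family factor GABP, rose by 0.62 ± 0.135 in A2780 (adjusted p = 0.0178 in limma). That call was lost with median scaling (0.10, adjusted p = 0.694), also with A2780 control 2 left out (0.175). Leaving out A2780 control 2, hyperthermia 1 or hyperthermia 2 alone lost it too (0.51, 0.53 and 0.69). With no between-array normalization the change turned in sign. GABPB1 was higher in SKOV3 at 37 °C by 0.87 ± 0.135 (adjusted p = 0.000243 in limma). This line difference lost its call with median scaling (0.32, adjusted p = 0.151), also with A2780 control 2 left out (0.39). It was not called with no between-array normalization either (0.19, adjusted p = 0.463).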

How the data were processed

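RNA of the 8 samples was measured on BeadChips that hold 47231 probes. The authors exported linear probe intensities with BeadStudio, per the submitters' processing notes, whose version is not given in the sources used here. The deposited intensities have array medians from 113.7 to 143.9, so they were not normalized between arrays; whether background was subtracted is not given in the sources used here, and the table names no detection p-values, chip or scan. A deposited table of log2 values keeps the order of the signals on each array (rank correlation 1). All its columns have the median 7.003, and none departs by more than 0.036 from the signals after quantile normalization and log2, steps that no label describes.

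Intensities were background-corrected by normexp (offset 50), quantile-normalized and taken to log2 with limma 3.58.1 in R 4.3.3. Probes with 1 symbol in the platform annotation (30113 probes; 8 carried several and 17110 were not listed) and a mean above the 40th percentile (6.16) were kept, and each gene was represented by its brightest probe, so that 14190 genes were tested. A probe was above background where it exceeded the 99th percentile of a normal curve fitted to the mode of an array's log2 signals and the values under that mode. The 4-group model was fitted to all genes with empirical Bayes moderation, on 4 residual plus 9.37 prior degrees of freedom (5 plus 8.54 in the additive model), and tests were two-sided. The number of arrays, 2 in each group, limits precision. Only the limma fit was tested on simulated data, drawn as normalized values with independent normal noise. Background correction, normalization and probe choice were not covered by it.

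Members and gene lists were chosen with earlier results of these data known, so no test over a list is given. Named are members called (up to 10 in each direction per comparison), isoform pairs, complex II and core complex I genes, up to 3 called genes of each pathway list per comparison, a heat gene as a label check, other probes of a member that differ in call or sign, and members near a call, singled out after their values were seen. Alternatives were the authors' values, a floor of 16 in place of normexp, scaling by medians, no scaling between arrays, dropping the filter or raising it to the 60th percentile, a trended, robust prior, the replicate block, only the arrays compared, every probe on its own and each array left out; where this leaves 1 sample in a group, it is assumed to vary like the other groups. Samples of equal number were not treated as pairs, since the labels tie no numbers together and the correlation of their deviations over genes was 0.072 between the A2780 groups, -0.25 between the SKOV3 groups, 0.175 between the controls and 0.291 between the hyperthermia groups.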

Additional observations from a re-analysis of the deposited data

How the results depend on the processing

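The number of members called depended on the arrays and on their scaling. With each array left out in turn it ran from 0 to 8 in A2780 at 46 °C (2 as reported), 0 to 1 in SKOV3 (0), 1 to 3 for the common response (2), 0 to 1 for the difference (0), 4 to 16 between the lines at 37 °C (11) and 3 to 13 at 46 °C (8). In A2780 it was 8 without A2780 control 1, 3 without either SKOV3 hyperthermia array, 1 without either SKOV3 control array and 0 without the remaining ones. In SKOV3 it was 1 without SKOV3 hyperthermia 1, for the difference 1 without A2780 control 1, and for the common response 1 with any array left out but SKOV3 control 1 (2) and SKOV3 hyperthermia 1 (3). At 37 °C it was 4 without A2780 control 2, 5 without SKOV3 control 1 and 7 without SKOV3 control 2. At 46 °C it was 3, 4 and 5 without A2780 hyperthermia 1, A2780 hyperthermia 2 and SKOV3 hyperthermia 1, and 13 without A2780 control 2. The authors' deposited values and the floor each gave 1 in A2780 and 1 for the common response. Median scaling gave 13 in A2780, 1 for the common response and 37 between the lines at 37 °C, and no between-array normalization gave 15, 0 and 41, with 3 between the lines at 46 °C. A trended and robust prior gave 4 for the common response and 14 between the lines at 46 °C. The replicate block gave 1 in A2780 and 1 for the common response, and its other counts lay within 1.5 times those reported. Chosen after seeing the data, the block with the SKOV3 hyperthermia numbers crossed gave 4 in A2780 and 1 in SKOV3, and median scaling without A2780 control 2 gave 1 in SKOV3, 24 between the lines at 37 °C and 13 at 46 °C.

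Medians by complex moved with the scaling. In A2780 at 46 °C those of complexes I, II and III were -0.29, -0.96 and -0.39 with median scaling and -0.40, -1.07 and -0.49 with no between-array normalization, which gave -0.19 for complex IV. For the common response complex II gave -0.37 with median scaling, and complexes I, II and III gave -0.22, -0.41 and -0.15 with none. For the difference of the responses complexes I to IV gave 0.28, 1.12, 0.38 and 0.19 with median scaling and 0.40, 1.24, 0.50 and 0.30 with none. Between the lines at 37 °C they gave -0.55, -0.91, -0.34 and -0.44 with median scaling and -0.67, -1.03, -0.46 and -0.56 with none. Median scaling without A2780 control 2 gave -0.18 for complex III in A2780, 0.19, 0.27 and 0.18 for complexes I, III and IV in the difference, and -0.43, -0.72, -0.31 and -0.33 for complexes I to IV at 37 °C. With every probe on its own the complex II median at 46 °C was 0.035. With arrays left out in turn, complex II ran from -0.82 to -0.25 in A2780, from -0.25 to 0.017 for the common response, from 0.48 to 0.84 for the difference and from -0.59 to -0.37 at 37 °C, and complex IV at 37 °C from -0.16 to -0.0094.

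Some called genes turned in sign under scalings that moved all genes one way. Between the lines at 37 °C NDUFB6 gave -0.019 with median scaling and -0.14 with no between-array normalization, NDUFC1 -0.13 and -0.26 (and -0.0084 with median scaling without A2780 control 2), NDUFA12 -0.12 and COX7A2 -0.050 with none, the second SDHC probe -0.014 and -0.14, and among the regulators TFB1M -0.081 and -0.20 (and -0.030 without A2780 control 2) and ESRRA -0.095 and -0.22. In A2780 at 46 °C, with no between-array normalization, the complex IV factor COX11 gave -0.019 and GABPB1 -0.0050. The medians of all genes under these scalings were -0.229 and -0.351 between the lines at 37 °C (-0.15 with median scaling without A2780 control 2) and -0.385 in A2780 with no between-array normalization, and each of these genes stayed above the median gene, by 0.096 to 0.38.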
